A study of Mus musculus with 6 samples.

Results

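Cell division genes were measured as a set of 40 genes chosen by symbol, of 17761 genes in the table, and each symbol matched a row. The set holds 13 genes of DNA replication (Mcm2 to Mcm7, Gins2, Cdc6, Cdt1, Pcna, Rrm1, Rrm2 and Tyms). It holds 20 genes of mitosis (Mki67, Top2a, Cdk1, Ccna2, Ccnb1, Ccnb2, Cdc20, Ube2c, Bub1, Bub1b, Aurka, Aurkb, Plk1, Birc5, Kif11, Kif20a, Kif23, Cenpe, Cenpf and Tpx2). The remaining 7 are G1 cyclins and regulators (Ccnd1, Ccnd2, Ccnd3, Ccne1, Ccne2, E2f1 and Foxm1), of which Foxm1 acts on mitotic genes.

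RNA sequencing of mouse tissue compared 3 Model libraries with 3 Control libraries. Model is inferior vena cava, the large vein of the lower body, ligated and collected with its thrombus 24 h later. What the Control animals underwent is not stated, and strain, sex and age are not given. The labels call the tissue of all 6 libraries thrombus, yet summed platelet markers reached 1065, 944 and 427 CPM in Model 1 to 3, against 148, 51.1 and 69.3 CPM in Control 1 to 3. Endothelial markers summed to 1805 to 2695 CPM in Model and 1825 to 2155 CPM in Control, so endothelial transcripts were present in both groups. Here CPM means the counts of a gene scaled to the usual common library total, after TMM scaling (the trimmed mean of log ratios). The libraries held 25336173 to 28193281 counts in Model and 31924426 to 38118463 counts in Control. Whether the libraries of a group came from separate animals is not stated, so a p-value here reflects sample-to-sample spread that can be technical. In bulk tissue, fewer cells of a type and less RNA per cell cannot be told apart.

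A dividing cell first licenses its origins of replication. Cdc6 and Cdt1 load the ring of 6 Mcm subunits onto DNA, the ring then unwinds the helix with the Gins complex, Pcna clamps the polymerases, and ribonucleotide reductase and thymidylate synthase supply nucleotides. Mitosis then runs on Cdk1 with its cyclins, on kinases that build the spindle and watch over it, and on the ubiquitin machinery that ends it. D-type cyclins answer growth signals in G1, and E-type cyclins and E2F factors commit the cell to S phase. In an adult vein most wall cells are quiescent. Circulating neutrophils and platelets do not divide, whereas activated lymphocytes and marrow precursors do.

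The promoters show how these programmes are known to be timed. Many S phase genes carry sites for E2F factors, and many mitotic genes carry a cell cycle genes homology region (CHR), often with CCAAT boxes bound by NF-Y. RefSeq entries on GRCm38.p6 gave 32 promoters for 30 of the 40 genes. The windows searched ran from 250 bases before to 30 bases after the annotated start. No entry was found for Ccne2, Mcm4, Ccna2, Aurkb, Tpx2, Foxm1, Gins2, Ccnd1, Kif20a and Ccnd2. The motifs searched on both strands were TTTGAA and TTCGAA for CHR, TTTCCCGC, TTTGGCGC, TTTCGCGC and TTTGCCGC for E2F, and CCAAT. Matches of different motifs shared bases in 1 of the 32 promoters. Below are the windows of the mitosis genes with the smallest p, Mki67 (chr7:135716350-135716629, minus strand) and Ccnb1 (chr13:100786457-100786736, minus strand), the other B-type cyclin, Ccnb2 (chr9:70421525-70421804, minus strand), the replication gene with the smallest p, Mcm5 (chr8:75109259-75109538, plus strand), and another subunit of the same ring, Mcm6 (chr1:128359676-128359955, minus strand). They are written 5′ to 3′ with motif matches in capitals.
Mki67: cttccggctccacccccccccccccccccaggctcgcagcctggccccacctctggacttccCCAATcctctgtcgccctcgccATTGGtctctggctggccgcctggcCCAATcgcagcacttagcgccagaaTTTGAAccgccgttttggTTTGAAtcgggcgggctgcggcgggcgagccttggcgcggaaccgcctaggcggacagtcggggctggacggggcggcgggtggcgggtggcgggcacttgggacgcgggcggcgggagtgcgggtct
Ccnb1: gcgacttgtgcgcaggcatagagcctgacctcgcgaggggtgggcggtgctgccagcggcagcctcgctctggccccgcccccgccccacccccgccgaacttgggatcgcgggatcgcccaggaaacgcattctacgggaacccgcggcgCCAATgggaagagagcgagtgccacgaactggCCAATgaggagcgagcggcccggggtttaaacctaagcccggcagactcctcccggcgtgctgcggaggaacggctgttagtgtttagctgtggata
Ccnb2: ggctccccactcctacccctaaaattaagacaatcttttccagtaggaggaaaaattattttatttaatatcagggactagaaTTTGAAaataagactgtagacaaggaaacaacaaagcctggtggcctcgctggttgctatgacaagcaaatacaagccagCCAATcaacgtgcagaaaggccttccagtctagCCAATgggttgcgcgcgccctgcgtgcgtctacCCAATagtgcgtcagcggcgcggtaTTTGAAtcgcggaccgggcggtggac
Mcm5: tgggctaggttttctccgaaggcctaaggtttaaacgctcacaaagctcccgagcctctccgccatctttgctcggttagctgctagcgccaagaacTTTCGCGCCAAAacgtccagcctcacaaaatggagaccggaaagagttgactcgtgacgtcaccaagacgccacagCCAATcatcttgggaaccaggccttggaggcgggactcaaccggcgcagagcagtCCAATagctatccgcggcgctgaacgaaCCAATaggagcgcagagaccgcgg
Mcm6: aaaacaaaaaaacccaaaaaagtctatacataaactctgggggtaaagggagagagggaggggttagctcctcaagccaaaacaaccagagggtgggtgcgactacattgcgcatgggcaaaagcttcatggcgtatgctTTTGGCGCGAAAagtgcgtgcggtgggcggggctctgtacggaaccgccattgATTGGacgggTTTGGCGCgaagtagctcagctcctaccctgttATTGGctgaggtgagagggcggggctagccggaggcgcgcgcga

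The Mki67 window holds 2 CHR and 3 CCAAT matches. The Ccnb2 window also holds 2 CHR matches, 1 of them just after the start, whereas the Ccnb1 window holds 2 CCAAT matches and no match to the CHR or E2F letters searched. In the Mcm5 and Mcm6 windows a pair of E2F matches of different spelling overlap on opposite strands, and Mcm6 holds 1 more. CHR letters occurred in 11 of 16 mitosis promoters (68.8%) and in 2 of 12 replication promoters (16.7%), beside 18.4% of 32851 promoters of all genes. E2F letters occurred in 1 of 16 mitosis promoters (6.25%), that of Cdk1, and in 5 of 12 replication promoters (41.7%), beside 2.12% of all promoters. CCAAT occurred in 15 of 16 mitosis promoters and 9 of 12 replication promoters, beside 36.1% of all promoters. The replication genes with an E2F match were Cdc6, Mcm3, Mcm5, Mcm6 and Mcm7. None of the 4 promoters of E2f1, Ccne1 and Ccnd3 held a CHR or E2F match. These are letter matches in a fixed window. They are not measured binding sites.

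**Figure D1:**
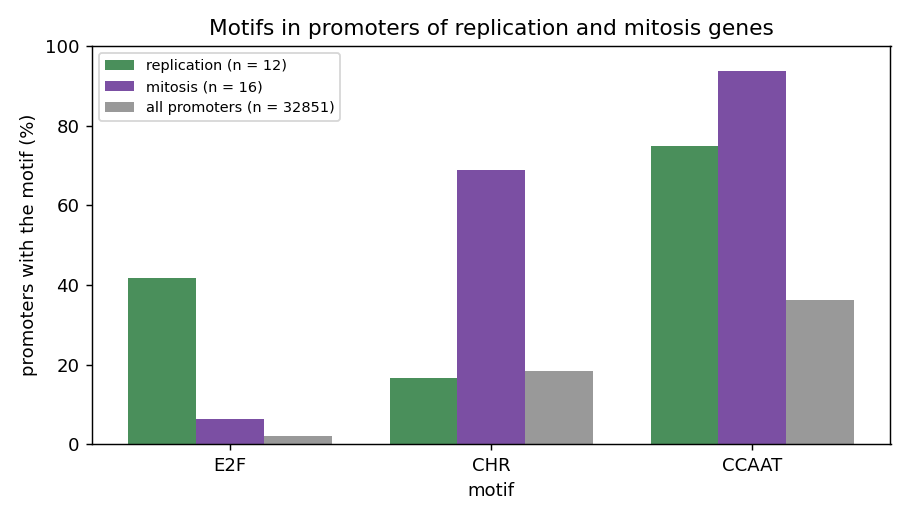
Share of promoters (percent, vertical axis) that hold at least 1 match to each motif, for 12 replication, 16 mitosis and 32851 promoters in all. CHR letters were found in 68.8% of mitosis promoters and E2F letters in 41.7% of replication promoters.

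Expression of the 40 genes was then compared between Model and Control. All 40 passed the filter on low counts. With edgeR's quasi-likelihood test adjusted over 13907 genes (threshold 0.05), 0 of the 40 were called in either direction, beside 4.07% of all tested genes (2.71% higher and 1.36% lower in Model). At an unadjusted p under 0.05 stood 5 of the 40 (12.5%), beside 15.8% of all genes. They were Mki67, Ccnd1, Ccnb1, Cenpf and Mcm5, and all 5 had lower mean levels in Model. The Model and Control libraries did not overlap for 5 of the 40 (12.5%), beside 23.5% of all genes. Those were Mki67, Ccnb1, Ccnd1 and Mcm5 with lower values in Model, beside 11.4% of all genes, and Ccne2 with higher values, beside 12.1%. Neither share exceeded the background. DESeq2 called 3 genes lower in Model (Ccnb1, adjusted p = 0.0054; Mki67, adjusted p = 0.0138; Ccnd1, adjusted p = 0.0498), beside 4.16% of all genes called lower by it. It gave no adjusted p for Birc5. limma-voom called 0 of the 40, beside 3.32% of all genes. edgeR without the filter called Mki67 lower (adjusted p = 5.74e-04), beside 2.64% of all 17761 genes.

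The fold changes leaned towards lower values in Model. The median log2 fold change was -0.37 over the 40 genes, and 30 of them had a negative one, beside a median of -0.01 and 50.4% negative over all tested genes. The precision was low for many. The 95% interval of the log2 fold change was wider than 4 log2 units for 20 genes, 13 of them of mitosis and 3 of replication. For 4 genes (Mcm6, Rrm1, Ccnd2 and Ccnd3) the interval lay within 1 log2 unit of 0 on both sides.

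**Figure D2:**
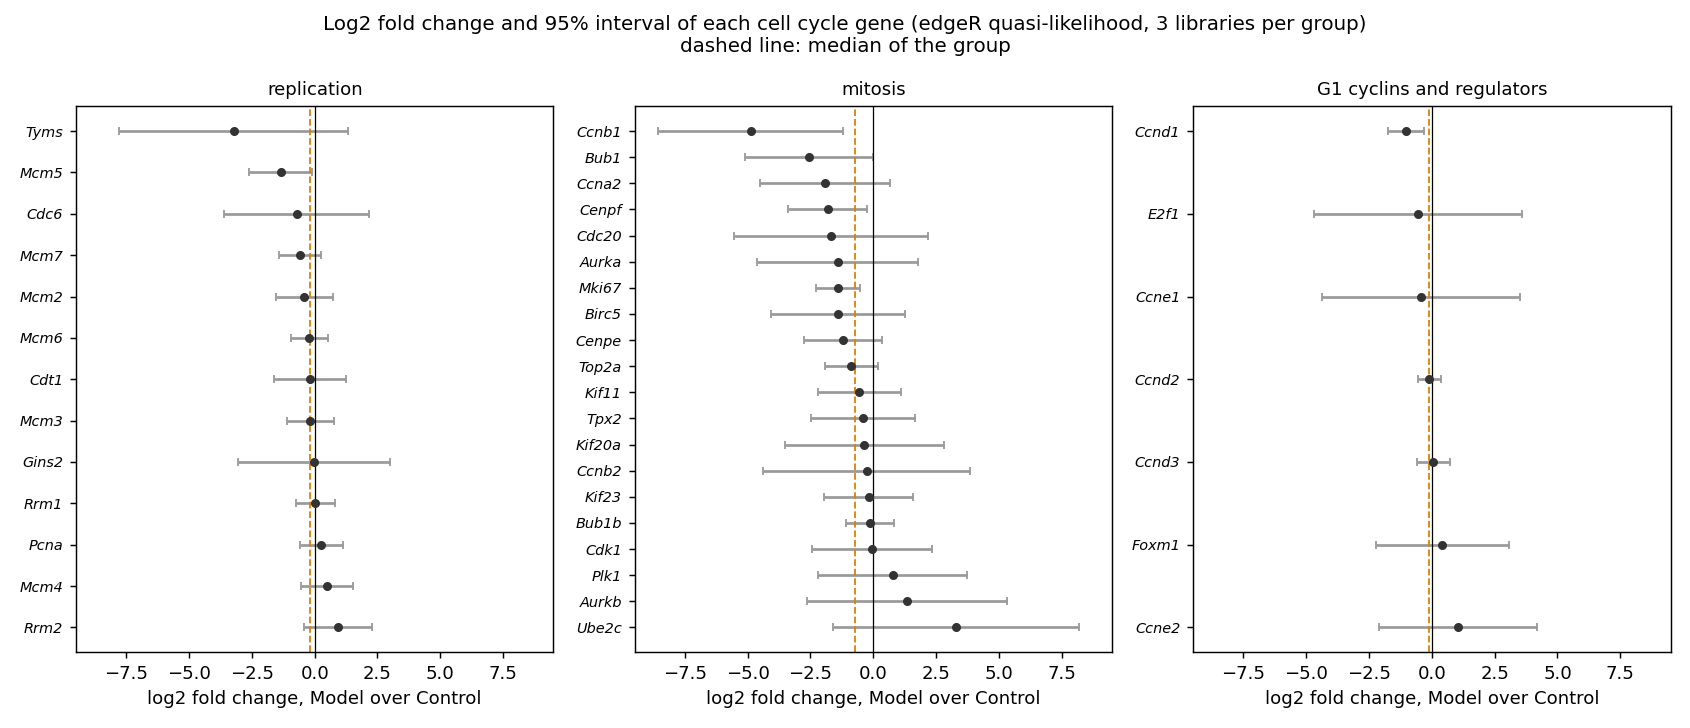
Log2 fold change of Model over Control (horizontal axis) for each gene, with its 95% interval from edgeR's quasi-likelihood fit of 3 libraries per group, sorted within the 3 role groups. The dashed line is the median of each group, -0.18 for replication, -0.71 for mitosis and -0.10 for the G1 genes.

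The 13 replication genes had a median log2 fold change of -0.18 (quartiles -0.58 and 0.02), with 9 negative and 4 positive. Mcm5, a subunit of the helicase ring (chr8:75109569-75128439 on GRCm38), had 7.64, 18.4 and 14.9 CPM in Model 1 to 3, against 45.5, 21.9 and 37.7 CPM in Control 1 to 3. All 3 Control libraries lay above all 3 Model libraries, yet the difference did not pass (log2 fold change -1.36, SE 0.57, 95% interval -2.61 to -0.12, adjusted p = 0.265). Mcm2, another subunit, had 10.7, 37.0 and 32.0 CPM in Model 1 to 3, against 41.1, 30.7 and 34.1 CPM in Control 1 to 3. Model 1 was low, and the other 5 lay between 30.7 and 41.1 CPM (log2 fold change -0.41, SE 0.53, 95% interval -1.55 to 0.73, adjusted p = 0.794). The fitted values of the other subunits were -0.58 for Mcm7, -0.21 for Mcm6, -0.17 for Mcm3 and 0.49 for Mcm4. The ring needs its 6 subunits in equal number, so their levels were also set per kilobase of exon. That length joins the exons of all annotated transcripts of a gene, 6956 bases for Mcm2 and 3589 to 4666 for the other subunits. Which transcripts were present was not tested, so the order of the subunits is uncertain. In Model 1 the subunit levels ran between 1.54 CPM per kb for Mcm2 and 20.3 CPM per kb for Mcm4. In Model 2 they ran between 4.61 for Mcm5 and 14.1 for Mcm6, and in Model 3 between 3.73 for Mcm5 and 12.5 for Mcm6. In the Controls they ran between 5.76 for Mcm4 and 21.7 for Mcm6 in Control 1, between 4.41 for Mcm2 and 10.9 for Mcm6 in Control 2, and between 4.90 for Mcm2 and 18.1 for Mcm6 in Control 3. Model 1 had the widest range, and Control 2 the narrowest. Mcm7 shares exon bases with Ap4m1 and Cops6 on the other strand, and the strand setting of the counts is not given, so its level is uncertain.

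Of the factors that load the ring, Cdc6 had 0.404, 4.33 and 9.30 CPM in Model 1 to 3, against 16.1, 3.12 and 3.68 CPM in Control 1 to 3. Its lowest value was in Model 1 and its highest in Control 1, and the groups overlapped (log2 fold change -0.71, SE 1.33, 95% interval -3.59 to 2.18, adjusted p = 0.877). Cdt1, which loads the ring with Cdc6, had a log2 fold change of -0.18 and 10.05 to 28.1 CPM in Model against 13.9 to 26.3 CPM in Control. Gins2, part of the active helicase, ran between 1.17 and 16.6 CPM in Model and between 0.425 and 12.0 CPM in Control, a spread within each group far above the difference of the means. Gins2 also shares exon bases with Gse1 on the other strand.

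Pcna, the sliding clamp, was the most abundant replication gene per length, with a mean of 29.4 CPM per kb in Model and 24.6 CPM per kb in Control. It had 114, 47.6 and 50.2 CPM in Model 1 to 3, against 70.6, 49.9 and 56.5 CPM in Control 1 to 3. Model 1 was the highest library and the other 5 lay between 47.6 and 70.6 CPM (log2 fold change 0.26, SE 0.40, 95% interval -0.60 to 1.11, adjusted p = 0.835). Among the nucleotide enzymes, Rrm1, the large subunit of ribonucleotide reductase, had 46.8 to 53.7 CPM in Model and 37.0 to 55.8 CPM in Control (log2 fold change 0.02, SE 0.36, 95% interval -0.76 to 0.80, adjusted p = 0.991). Its partner Rrm2, the subunit that cells make mainly in S phase, had 29.9, 31.1 and 28.8 CPM in Model 1 to 3, against 29.6, 7.13 and 10.5 CPM in Control 1 to 3. The Model libraries lay close together, Control 1 lay at their level and Control 2 and 3 lay lower (log2 fold change 0.93, SE 0.63, 95% interval -0.44 to 2.30, adjusted p = 0.538). Tyms, thymidylate synthase, had 4, 18 and 2 counts in Model 1 to 3, against 3, 46 and 247 in Control 1 to 3. Control 3 held most of the counts (log2 fold change -3.22, SE 2.10, 95% interval -7.78 to 1.34, adjusted p = 0.513).

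Mitosis genes had a lower median log2 fold change, -0.71 (quartiles -1.48 and -0.16), with 17 of 20 negative. Mki67, the proliferation antigen Ki-67 (chr7:135689784-135716361), had 51.8, 63.1 and 70.0 CPM in Model 1 to 3, against 285, 82.9 and 122 CPM in Control 1 to 3. It averaged 61.6 ± 9.18 CPM in Model and 164 ± 107 CPM in Control (SD, n = 3 each). All Control libraries lay above all Model libraries, and Control 1 stood far above the other Controls. It did not pass the test (log2 fold change -1.41, SE 0.40, 95% interval -2.28 to -0.54, adjusted p = 0.0779). Without Control 1 its log2 fold change was -0.75 (edgeR adjusted p = 0.295), and without Control 2 it was -1.73 (edgeR adjusted p = 0.0213, beside 0.940% of all genes called lower in that fit). Top2a, the topoisomerase that untangles chromosomes, had 62.8, 41.8 and 28.6 CPM in Model 1 to 3, against 139, 33.8 and 71.9 CPM in Control 1 to 3. Control 1 was again the highest, and Control 2 lay inside the Model values (log2 fold change -0.88, SE 0.49, 95% interval -1.93 to 0.18, adjusted p = 0.422).

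The cyclins that drive Cdk1 differed in which libraries held them. Ccnb1, cyclin B1 (chr13:100778650-100786570), had 9, 11 and 2 counts in Model 1 to 3, against 719, 71 and 99 in Control 1 to 3. Its levels were 0.364, 0.401 and 0.0788 CPM in Model 1 to 3, against 20.4, 1.73 and 2.91 CPM in Control 1 to 3. The Model libraries lay at or near the level of a few reads, and Control 1 held most of the Control counts (log2 fold change -4.87, SE 1.70, 95% interval -8.55 to -1.19, adjusted p = 0.161). Without Control 1 the log2 fold change was -3.04 (edgeR adjusted p = 0.544). Ccnb2, cyclin B2, had 0.0808, 1.93 and 2.01 CPM in Model 1 to 3, against 0.113, 2.78 and 1.94 CPM in Control 1 to 3. In both groups library 1 was near 0 and the other two lay near one another, so Control 1, the library with most Ccnb1, held almost no Ccnb2. Ccna2, cyclin A2, which serves both S phase and mitosis, had 0.727, 9.87 and 0.906 CPM in Model 1 to 3, against 23.0, 8.72 and 11.9 CPM in Control 1 to 3. Model 2 lay among the Controls and Model 1 and 3 below them (log2 fold change -1.92, SE 1.19, 95% interval -4.49 to 0.65, adjusted p = 0.482). The kinase itself, Cdk1, had 31.7, 17.9 and 1.81 CPM in Model 1 to 3, against 45.8, 5.11 and 2.59 CPM in Control 1 to 3. Library 1 was the highest in each group and the groups overlapped (log2 fold change -0.06, SE 1.10, 95% interval -2.45 to 2.34, adjusted p = 0.993). Ccna2 shares exon bases with Exosc9 on the other strand.

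Among spindle checkpoint and kinetochore genes, Bub1, a checkpoint kinase, had 1.01, 2.48 and 4.41 CPM in Model 1 to 3, against 36.2, 3.99 and 6.04 CPM in Control 1 to 3. Control 1 stood apart, and Model 3 lay above Control 2 (log2 fold change -2.55, SE 1.17, 95% interval -5.09 to 0.00, adjusted p = 0.316). Its relative Bub1b had 26.8 to 38.7 CPM in Model and 23.1 to 47.6 CPM in Control, with a log2 fold change of -0.13. Cenpf, a kinetochore protein (chr1:189640606-189688086), had 12.0, 16.3 and 3.86 CPM in Model 1 to 3, against 70.9, 15.2 and 26.1 CPM in Control 1 to 3. Model 2 lay above Control 2, and the difference did not pass (log2 fold change -1.80, SE 0.73, 95% interval -3.38 to -0.23, adjusted p = 0.235). Cenpe, a kinetochore motor, had a log2 fold change of -1.20.

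The ubiquitin genes that end mitosis pointed in opposite directions with very wide error. Ube2c, the ubiquitin-conjugating enzyme of the anaphase-promoting complex, had 2, 156 and 90 counts in Model 1 to 3, against 2, 36 and 0 in Control 1 to 3. Model 2 and 3 held nearly all its Model counts and Control 2 nearly all its Control counts (log2 fold change 3.30, SE 2.26, 95% interval -1.61 to 8.20, adjusted p = 0.541). Its locus overlaps Tnnc2, a troponin gene, on the other strand. Cdc20, the activator of the same complex, had 0.364, 2.88 and 1.81 CPM in Model 1 to 3, against 0.0566, 1.85 and 14.3 CPM in Control 1 to 3, with a log2 fold change of -1.68. Of the mitotic kinases, Aurka had a log2 fold change of -1.41, Aurkb 1.35 and Plk1 0.77, with standard errors of 1.47, 1.84 and 1.38. Birc5, the survivin subunit that works with Aurkb, had -1.40. The spindle and midzone motors Kif11, Kif20a and Kif23 had -0.55, -0.35 and -0.18, and the spindle factor Tpx2 had -0.39. Adjusted p was 0.66 or higher for each of these last 8 genes. Cdc20, Plk1 and Kif20a also share exon bases with genes on the other strand (Elovl1, Gm44985 and Cdc23).

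**Figure D3:**
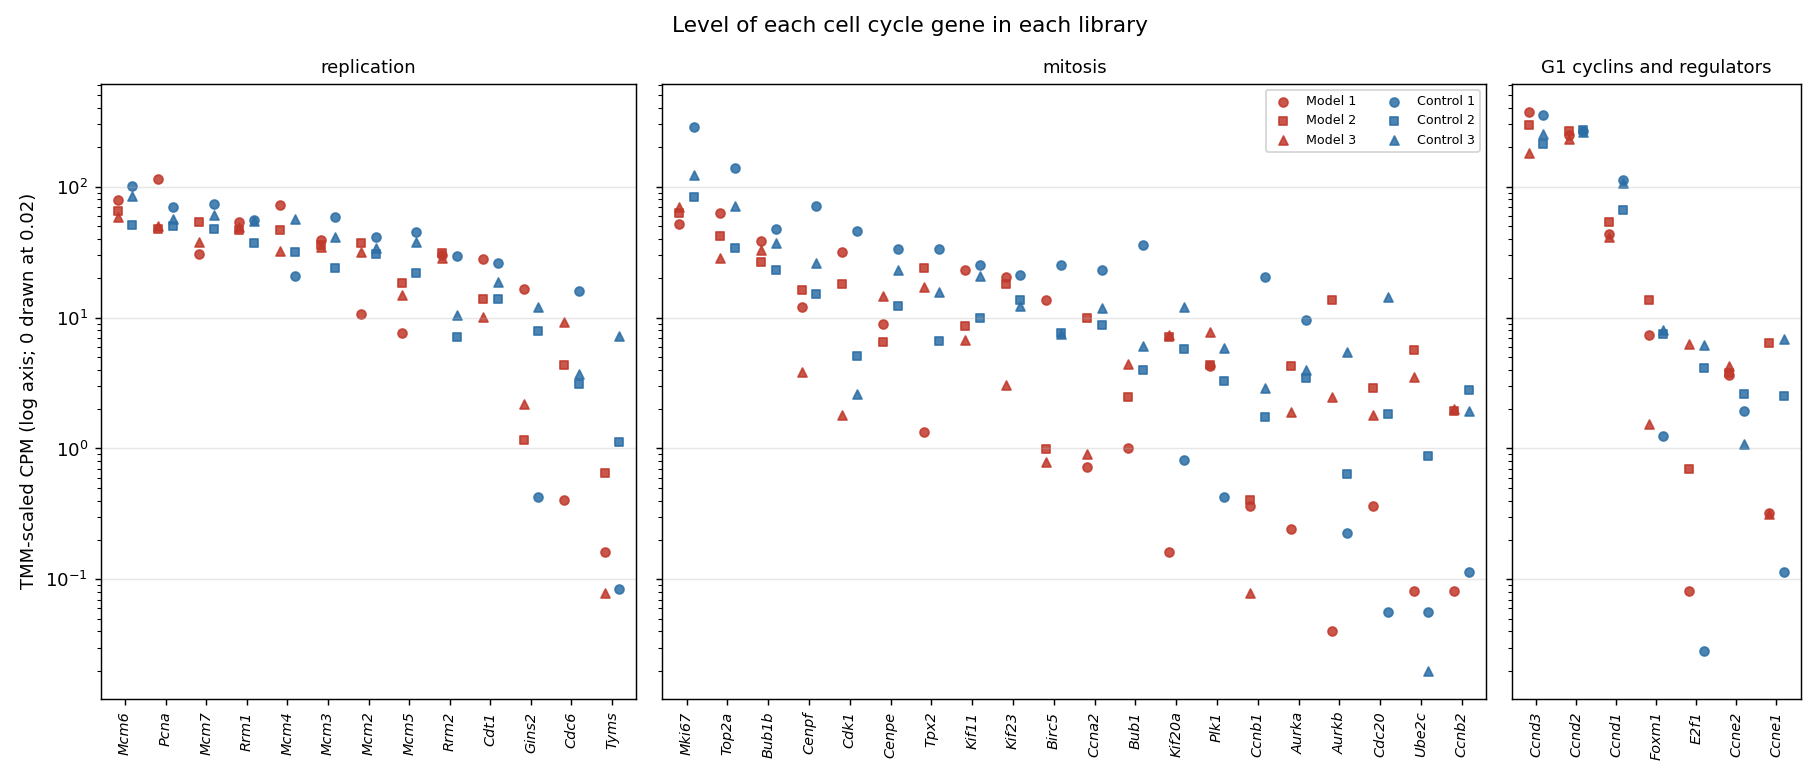
Level of each gene (TMM-scaled CPM, log axis, 0 drawn at 0.02) in each Model (red, left) and Control (blue, right) library, with genes ordered by mean level within role. Mki67 and Ccnd1 lie lower in all Model libraries, and several genes on the right of each panel spread over more than 1 power of 10 within a group.

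The G1 genes held the most abundant gene of the set per length, Ccnd3, and also some of the rarest. Ccnd1, cyclin D1 (chr7:144929931-144939925), had 43.4, 53.8 and 41.6 CPM in Model 1 to 3, against 112, 66.2 and 108 CPM in Control 1 to 3. It averaged 46.3 ± 6.61 CPM in Model and 95.3 ± 25.3 CPM in Control (SD, n = 3 each), and the groups did not overlap, but the difference did not pass (log2 fold change -1.04, SE 0.33, 95% interval -1.76 to -0.32, adjusted p = 0.118). Its exons overlap those of LTO1 on the other strand. Leaving out Control 1 gave a log2 fold change of -0.92. Cyclin D2, Ccnd2, had 248, 265 and 233 CPM in Model 1 to 3, against 265, 269.8 and 262 CPM in Control 1 to 3. All 6 libraries lay in 1 band, and the interval excludes a change of 1 log2 unit either way (log2 fold change -0.10, SE 0.21, 95% interval -0.56 to 0.37, adjusted p = 0.897). Ccnd3, cyclin D3, had 375, 296 and 179.8 CPM in Model 1 to 3, against 355, 211 and 254 CPM in Control 1 to 3. Model held both the highest and the lowest library (log2 fold change 0.05, SE 0.30, 95% interval -0.60 to 0.71, adjusted p = 0.965). Per kilobase of exon, the order of mean levels in Model was Ccnd3 (32.3 CPM per kb), Ccnd2 (26.4) and Ccnd1 (9.82), against 31.1, 28.2 and 20.2 in Control. Ccnd2 and Ccnd3 share exon bases with other genes on the opposite strand.

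Ccne1 and E2f1 were near the detection limit in some libraries, where 3 counts equal 0.0787 to 0.118 CPM. Ccne1 had 0.323, 6.41 and 0.315 CPM in Model 1 to 3, against 0.113, 2.51 and 6.92 CPM in Control 1 to 3, with no common order of the groups (log2 fold change -0.44, SE 1.82, 95% interval -4.39 to 3.52, adjusted p = 0.952). Ccne2 had 3.64, 3.79 and 4.25 CPM in Model 1 to 3, against 1.92, 2.63 and 1.09 CPM in Control 1 to 3. Its 3 Model libraries all lay above the Controls, by less than the fit's error (log2 fold change 1.05, SE 1.45, 95% interval -2.09 to 4.18, adjusted p = 0.809). It shares exon bases with Ints8 on the other strand. E2f1, a factor that switches on S phase genes, had 2, 19 and 160 counts in Model 1 to 3, against 1, 170 and 211 in Control 1 to 3. It was nearly missing from library 1 of both groups (log2 fold change -0.55, SE 1.91, 95% interval -4.69 to 3.58, adjusted p = 0.941). Foxm1, a factor that switches on mitotic genes, had 7.35, 13.5 and 1.54 CPM in Model 1 to 3, against 1.25, 7.50 and 8.01 CPM in Control 1 to 3, and the groups overlapped (log2 fold change 0.42, SE 1.23, 95% interval -2.24 to 3.09, adjusted p = 0.926).

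Replication genes were next set against mitosis genes. This is a description, with no test of a score over chosen genes. Mean log2 CPM of the 13 replication genes was 4.02, 4.14 and 3.94 in Model 1 to 3, against 4.29, 4.05 and 4.73 in Control 1 to 3. For the 20 mitosis genes it was 1.43, 2.93 and 2.12 in Model 1 to 3, against 3.11, 2.63 and 3.16 in Control 1 to 3. The difference, replication minus mitosis, was 2.59, 1.21 and 1.82 in Model 1 to 3, against 1.18, 1.41 and 1.57 in Control 1 to 3. Model 1 and 3 lay above the Controls and Model 2 lay among them, so the groups overlapped. Model 2 and Control 1 also held the most hepatocyte marker transcripts of their groups, with summed levels of 759, 6103 and 1359 CPM in Model 1 to 3, against 2280.1, 1622 and 1368 CPM in Control 1 to 3. edgeR called 0 of the 8 markers, as did DESeq2 and limma-voom. DESeq2 gave no adjusted p for Alb, Apoa2, Ttr and Serpina1a, so it could not call them. At an unadjusted p under 0.05 edgeR placed 3, beside 15.8% of all genes. Of these, Cyp2e1 was lower in Model, and Apoa2 and Fgg had higher means. Model 2 held most of the Model counts of Apoa2 (4, 8181 and 75 in Model 1 to 3) and Fgg (7, 5126 and 418). Without the filter, edgeR gave an adjusted p under 0.05 for Alb, Apoa1, Apoa2, Ttr, Fgb and Fgg. That fit called 642 genes higher and 469 lower of all 17761. The part of liver transcripts in the mitosis values was not tested.

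The size of the mitosis median depended on which genes entered it. Without Mki67, Top2a and Ccna2, which are also active in S phase, it was -0.39, and among the 9 mitosis genes with a mean of at least 10 CPM it was -0.55, all 9 being negative. Among the 10 replication genes at that level the median was -0.17, with 6 negative. Leaving out Control 1 turned the replication median to 0.08 and left the mitosis median at -0.66. In summed CPM, mitosis genes reached 272, 277 and 212 CPM in Model 1 to 3, against 818, 243 and 404 CPM in Control 1 to 3. Control 2 lay between the Model libraries, and Control 1 stood highest. Replication genes summed to 483, 404 and 361 CPM in Model 1 to 3, against 539.7, 326 and 479 CPM in Control 1 to 3, with full overlap of the groups.

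**Figure D4:**
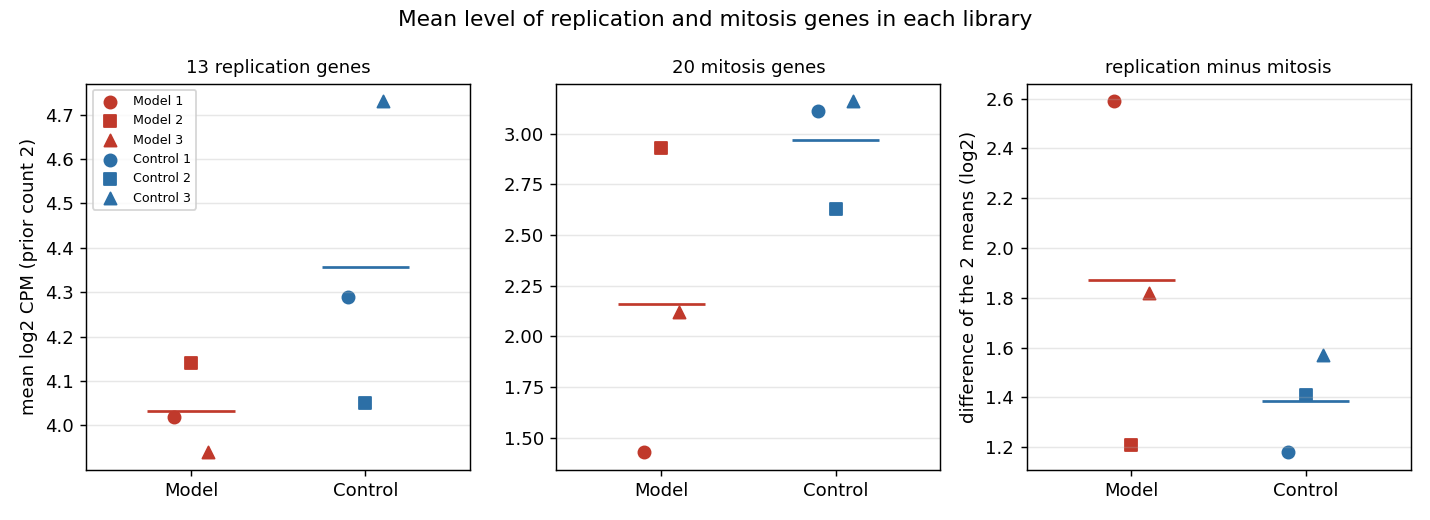
Mean log2 CPM (prior count 2, vertical axis) of the 13 replication genes and of the 20 mitosis genes in each library, and their difference, for Model (left) and Control (right). Lines mark group means. The difference in Model 2 (1.21) lies among the Controls (1.18 to 1.57), while Model 1 (2.59) and Model 3 (1.82) lie above them.

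Single libraries carried much of the spread. Control 1 held the highest value of 22 of the 40 genes, 14 of them of mitosis and 7 of replication, against 3698 of all 13907 tested genes. It also held the lowest value of 7. Of the 40 genes, 10, 0 and 3 had under 10 counts in Model 1 to 3, against 7, 0 and 1 in Control 1 to 3. The 7 of Control 1 were Tyms, Ccnb2, Cdc20, Ube2c, Aurkb, Ccne1 and E2f1. All 7 were among the 10 of Model 1. The others of Model 1, Ccnb1, Aurka and Kif20a, had 719, 341 and 29 counts in Control 1. How far low-count genes of the 2 libraries coincide over all tested genes was not counted. Over all tested genes the shares under 10 counts were 9.90%, 4.65% and 6.21% in Model 1 to 3, against 11.4%, 0.777% and 2.69% in Control 1 to 3. A gene was called uneven where 1 library had under 10 counts and another at least 100. This applied to 10 of the 40 genes, 7 of them of mitosis (35.0% of its 20 genes) and 1 of replication (7.69%), beside 16.5% of all tested genes. They were Tyms, Ccnb1, Ccnb2, Cdc20, Ube2c, Aurka, Aurkb, Kif20a, Ccne1 and E2f1. These 10 had a median of 2804 exon bases and 3.22 CPM, against 4671 exon bases and 23.4 CPM for the other 30. The rule itself asks for a library under 10 counts, so it favours genes of low level. The part of length, level and library preparation in their unevenness was not tested.

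The rest of the replication and mitosis machinery showed the same lack of calls. Of 45 tested other origin and fork genes, 0 were called, with a median log2 fold change of -0.15 and 24 negative. The smallest p values there belonged to Orc2, of the origin recognition complex (log2 fold change 0.89, adjusted p = 0.389), and Rpa1, of the single-strand binding protein (log2 fold change -0.52, adjusted p = 0.41). Of 48 tested other spindle, kinetochore and condensin genes, 0 were called, with a median of -0.32 and 29 negative. Smc4, a condensin subunit that compacts chromosomes, had 106, 123 and 105 CPM in Model 1 to 3, against 289, 145 and 187 CPM in Control 1 to 3. Its groups did not overlap (log2 fold change -0.89, SE 0.28, 95% interval -1.51 to -0.28, adjusted p = 0.114). Cdc25b, the phosphatase that activates Cdk1, had a log2 fold change of -0.94 (adjusted p = 0.268). Of 21 tested G1 kinases, pocket proteins and E2F factors, 0 were called and the median was 0.58, with Tfdp2, an E2F partner, at 0.77 (adjusted p = 0.336) and Cdc25a at 1.37 (adjusted p = 0.422). Of 53 tested replication-dependent histone genes, 0 were called, with a median of -0.49 and 37 negative. Hist1h1c, a linker histone, had a log2 fold change of 1.03 (adjusted p = 0.0791) and Hist1h4k one of -2.75 (adjusted p = 0.286). Histone genes have near-identical copies, so single values are uncertain. At an unadjusted p under 0.05 edgeR placed 0 of the origin and fork genes and 0 of the G1 kinases and E2F factors. It placed 2 of the spindle genes (4.17%) and 3 of the histone genes (5.66%), beside 15.8% of all genes. limma-voom called none in these lists, beside 3.32% of all genes. DESeq2 called 1, Hist1h1c, higher (adjusted p = 0.0249), beside 639 of all 13907 tested genes called higher by it.

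The brakes of the cycle gave the 1 call in these lists. Cdkn1a, the CDK inhibitor p21 and a known target of p53 (chr17:29090976-29100727), had 179, 132 and 205 CPM in Model 1 to 3, against 68.4, 20.2 and 15.9 CPM in Control 1 to 3. It averaged 172 ± 36.9 CPM in Model and 34.8 ± 29.2 CPM in Control (SD, n = 3 each). Every Model library lay above every Control library, and the rise passed the test (log2 fold change 2.31, SE 0.49, 95% interval 1.25 to 3.37, adjusted p = 0.0195). DESeq2 gave an adjusted p of 8.44e-05 and limma-voom one of 0.00289. Without Model 1 the edgeR adjusted p was 0.0772 at a log2 fold change of 2.27. Of 16 tested CDK inhibitors and brakes it was the only one called, beside 4.07% of all tested genes. The median log2 fold change of the list was 0.44, with 4 negative.

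Some lymphocyte markers were lower in Model. Of all tested genes, edgeR called 1.36% and DESeq2 4.16% lower, and limma-voom called 3.32% in either direction. Of 12 tested T cell and thymocyte markers, 6 were called lower in Model (6 by DESeq2 and 1 by limma-voom), and their list summed to 456, 467 and 295 CPM in Model 1 to 3, against 1705, 650.0 and 940.3 CPM in Control 1 to 3. Of 12 tested B cell and germinal centre rows, 4 were called lower (5 by DESeq2 and 4 by limma-voom), and the list summed to 612, 497 and 397 CPM in Model 1 to 3, against 1642, 898 and 1152 CPM in Control 1 to 3. Bcl6, a germinal centre factor that other cells also make, was the exception in direction among the B cell rows, with a log2 fold change of 0.46. For both lists Control 1 was the highest library and the groups did not overlap. In Control 1 some markers stood far apart, chosen here after their values were seen. Ccr9, a homing receptor of thymocytes and gut T cells, had 2.91, 3.13 and 0.867 CPM in Model 1 to 3, against 144, 10.1 and 12.1 CPM in Control 1 to 3. Mybl1, a factor of germinal centre B cells, had 7.47, 3.17 and 3.51 CPM in Model 1 to 3, against 45.1, 2.68 and 4.68 CPM in Control 1 to 3. Not every row of the B cell and germinal centre list was highest in Control 1. Gcsam had 0.0808, 3.42 and 0.0788 CPM in Model 1 to 3, against 0.311, 0.852 and 10.8 CPM in Control 1 to 3. Of the defining markers of immature lymphocytes, Rag1 had 0, 0 and 0 counts in Model 1 to 3, against 45, 2 and 168 in Control 1 to 3, and Dntt had 2, 22 and 0 counts in Model 1 to 3, against 62, 62 and 131 in Control 1 to 3. Rag2 was at 0 in all libraries but Model 3, which had 1 count. The part of lymphocytes in the mitosis values was not tested.

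Markers of neutrophils and some of red cells were higher in Model. Of all tested genes, edgeR called 2.71% higher. All 8 tested neutrophil markers were called higher (8 by DESeq2 and 4 by limma-voom), and the list summed to 2166, 6418 and 2186 CPM in Model 1 to 3, against 29.3, 53.8 and 112 CPM in Control 1 to 3. Of 3 tested granulocyte precursor markers, Ngp and Chi3l3 were called higher. The other, Ltf, had 209, 328 and 321 counts in Model 1 to 3, against 2, 59 and 138 in Control 1 to 3. Its groups did not overlap, but it did not pass (log2 fold change 2.57, edgeR adjusted p = 0.41). The primary granule genes that mark dividing precursors were at 0 or a few counts in most libraries, with Ctsg at 0, 0 and 0 counts in Model 1 to 3, against 0, 1 and 46 in Control 1 to 3 and Prtn3 at 0, 1 and 209 counts in Model 1 to 3, against 8, 96 and 1 in Control 1 to 3. Cebpe, on the same list and removed by the filter, had 168, 0 and 38 counts in Model 1 to 3, against 1, 1 and 0 in Control 1 to 3. Ms4a3, Fcnb and Camp had 48 counts or fewer in every library. Elane and Mpo were also listed, but no row of the deposited counts carried these symbols. Erythroid markers summed to 15343, 28690.2 and 4896 CPM in Model 1 to 3, against 323, 360.0 and 451 CPM in Control 1 to 3, and 5 of 9 tested were called higher, 2 being negative. Of 6 tested monocyte and macrophage markers, 2 were called higher, with a median log2 fold change of 0.03 and 3 negative. Their list summed to 887, 1143 and 679 CPM in Model 1 to 3, against 1373, 695 and 1411 CPM in Control 1 to 3, and the groups overlapped. Smooth muscle markers, of the vein wall, summed to 2428, 2646 and 1091 CPM in Model 1 to 3, against 4544, 4338 and 2923 CPM in Control 1 to 3, and fibroblast markers to 2926, 3150.4 and 3287 CPM in Model 1 to 3, against 4217, 3891 and 6588 CPM in Control 1 to 3. edgeR called 0 of the 7 smooth muscle and 0 of the 8 fibroblast markers. At an unadjusted p under 0.05 stood 3 of each, beside 15.8% of all genes. DESeq2 called 2 and 3, beside 4.16% of all genes called lower by it, and limma-voom called 2 and 1. The summed levels of each list did not overlap between Model and Control. Taken singly, 4 of the 7 smooth muscle and 3 of the 8 fibroblast markers did not overlap, beside 23.5% of all genes. Those of fibroblasts were the collagens Col1a1, Col1a2 and Col3a1, which made up most of the fibroblast sum. Pdgfra and Dcn had positive log2 fold changes, 0.18 and 0.27. The part of these cells in the cell cycle values was not tested.

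**Figure D5:**
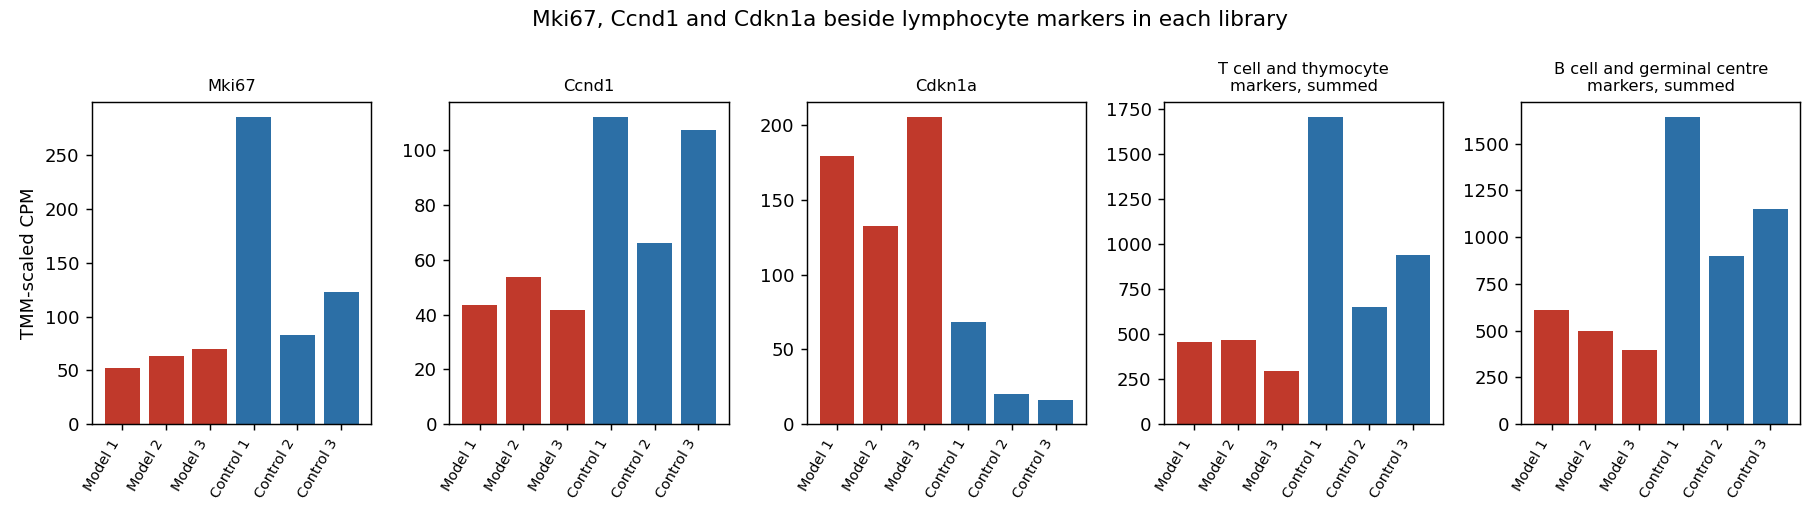
Levels (TMM-scaled CPM, vertical axes from 0) of Mki67, Ccnd1 and Cdkn1a and summed levels of T cell and B cell marker lists in the 3 Model (red) and 3 Control (blue) libraries. Mki67, Ccnd1 and both marker sums are lower in every Model library, Cdkn1a is higher in every Model library, and Control 1 is highest for Mki67 and both sums.

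The genes whose levels followed the mean of the mitosis genes most closely over the 6 libraries were 1810030O07Rik (Pearson r = 0.994), Zbtb7a (0.993), Zfp619 (0.991), 5430427O19Rik (0.990) and Tia1 (0.990). These 6 points share the depth and make-up of their libraries, and no p is given for correlations chosen as the highest of 13907. None of the 5 was called, with log2 fold changes between -1.40 and -0.26.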

How the data were processed

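Per the labels' protocols, rRNA-depleted total RNA was made into low-input libraries and the paired reads were trimmed with cutadapt 1.9.3. STAR 2.5.1b and edgeR 3.16.5, with the build mm10, are named in the submitters' processing notes. The sources used here do not give the counting tool, the annotation or how strand was treated. Per the file headers, the authors deposited unnormalized counts for each gene and library, and 6 further columns of normalized values that were not used here.

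Libraries were grouped by title. The analysis used edgeR 4.0.16 under R 4.3.3: filterByExpr with a minimum count of 10 (13907 of 17761 genes kept), TMM scaling, the two-sided quasi-likelihood test and Benjamini-Hochberg adjustment over all tested genes. Role means use log2 CPM with a prior count of 2. The fit was tested on simulated counts. Alternatives were DESeq2 1.42.0, limma-voom (limma 3.58.1), other scalings (upper-quartile, RLE), other filters (none, or a minimum count of 100), the replicate number as a block, each library left out in turn, Control 1 and Model 2 both left out, a prior count of 0.5 and narrower gene lists. A restriction to genes with a mean of at least 10 CPM was chosen after seeing the data.

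The 40 genes and all lists were chosen with earlier results of these data known. Every library's value is given for the 4 replication and 4 mitosis genes with the largest log2 fold change, all G1 genes, and Mki67, Top2a, Pcna, Cdk1 and Mcm2. Other lists are given by counts, with up to 4 called genes each way or the 2 with the smallest p. Ccnb2, Cenpf, Cdc20 and single markers are given in full outside that rule, after their values were seen. A count of 0 allows up to 3 counts, which covers counting error only. Gene positions and exon lengths are from GENCODE release M21 on GRCm38 (mm10). Exon length counts each base in any annotated transcript of a gene once.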

Additional observations from a re-analysis of the deposited data

How the results depend on the processing

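Over all tested genes, 377 were called higher and 189 lower in Model. Without a filter these counts were 642 and 469, with DESeq2 639 and 578, and with limma-voom the lower count was 115. Leaving out 1 library gave 221 to 312 higher and 92 to 136 lower, and leaving out both Control 1 and Model 2 gave 222 and 63. Of the 40 cell cycle genes, the count called lower was 1 without a filter (Mki67), 3 with DESeq2 and 0 to 1 when 1 library was left out. Of the 20 mitosis genes it was 1, 2 and 0 to 1. No alternative called any of the 40 higher or any replication gene lower. Without a filter 1 other spindle gene was called lower, and 1 histone gene was called higher there and with DESeq2. Without Model 1 no CDK inhibitor was called.

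The replication median ran from -0.45 to 0.08 when 1 library was left out, and was 0.17 without Control 1 and Model 2. The mitosis median stayed negative, between -1.06 and -0.55 when 1 library was left out. The sign of the log2 fold change held for 21 of the 40 genes in every alternative that could be run for them. The minimum count of 100 left out Tyms, Ccnb1, Ccnb2, Cdc20, Ube2c, Aurkb and Ccne1. It turned for 19. When 1 library was left out, values ran from -0.45 to 0.15 for Mcm3, -2.00 to 0.69 for Gins2, -1.70 to 0.45 for Cdc6, -0.72 to 0.10 for Cdt1, -0.28 to 0.47 for Pcna, -0.15 to 0.11 for Rrm1, -0.88 to 2.14 for Cdk1, -0.82 to 0.38 for Ccnb2, -2.32 to 0.82 for Cdc20, -0.37 to 0.11 for Bub1b, and -0.75 to 3.62 for Aurkb. They ran from -0.88 to 0.57 for Kif20a, -0.58 to 0.29 for Kif23, -1.02 to 0.34 for Tpx2, -0.21 to 0.29 for Ccnd3, -3.31 to 0.84 for Ccne1, -3.15 to 0.18 for E2f1 and -0.33 to 0.91 for Foxm1. Without Control 1 and Model 2 they were 0.19 for Mcm3, 0.04 for Mcm6, 0.51 for Cdc6, 0.24 for Cdt1, 2.13 for Cdk1, 0.26 for Bub1b, -1.26 for Aurkb and -0.79 for Foxm1. Upper-quartile scaling gave -0.03 for Rrm1, and limma-voom gave 0.29 for Cdk1 and 0.07 for Cdc20. The cause of these changes was not tested.

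With the replicate number as a block, 379 genes were called higher and 196 lower, and 0 of the 40. The log2 fold change turned to 0.22 for Cdk1, 0.13 for Cdc20 and -0.02 for Aurkb. The numbers were not taken to pair the samples. Deviations of same-numbered libraries correlated at 0.147, 0.119 and 0.00367. Model 1 and 2 correlated best with the Control of their own number, and Model 3 did not. With 3 libraries per group this check cannot settle whether the samples were paired. The 7 cell cycle genes under 10 counts in Control 1 were also under 10 counts in Model 1, but this was not counted over all tested genes. Depth limits the rarest genes: 3 counts equal 0.0787 to 0.118 CPM.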
